A study of Danio rerio with 8 samples.

Results

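Eph receptors and ephrins were followed in RNA from dissected zebrafish hindbrains. The members are all genes whose symbol begins with eph or efn, a class letter A or B, and a number. The table of symbols lists 30 such Ensembl IDs and 29 of them are in the counts, among 32189 IDs in all. They comprise 8 EphA receptors, 8 EphB receptors, 9 ephrin-A ligands and 4 ephrin-B ligands. Of the 29, 28 passed the filter on low counts and were tested. The exception was ephb6, an Eph receptor without kinase activity in mammals, which had 0 to 6 counts per library.

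Each library was made from 1 hindbrain with surrounding tissue, dissected at 24 to 25 hpf (hours post-fertilisation). The 4 control embryos are recorded as wild type and the 4 others as carrying a constitutively active Fgfr1, called ca_fgfr1 here. Both groups came from outcrosses of the line Tg(hsp70:ca-fgfr1), in which a heat shock promoter drives the receptor, so its expression is not limited to hindbrain cells. All 8 embryos, controls included, were raised at 28.5°C, warmed to 38.5°C for 30 min at 22 hpf and returned to 28.5°C for 2 h. Carriers are heterozygous and were told apart from their clutch mates by qPCR after RNA extraction.

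Eph receptors are receptor tyrosine kinases, and ephrins are their membrane-bound ligands on neighbouring cells. Ephrin-A ligands are held by a lipid anchor and mostly bind EphA receptors, whereas ephrin-B ligands span the membrane, mostly bind EphB receptors and can themselves signal into the cell that carries them. EphA4 also binds ephrin-B ligands. In the hindbrain, Eph receptors and ephrin-B ligands lie in complementary segments (rhombomeres), where contact between them keeps cells of neighbouring segments apart and sharpens the borders. In zebrafish, epha4a marks r3 and r5. The active receptor belongs to another family of receptor tyrosine kinases. The comparison asks which transcripts differ 2 h after the heat shock that induces it.

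Many of the symbols are given in capitals (19 of 29 members), without the a or b of the zebrafish paralogue, and 6 symbols stand on 2 IDs each. Which EPHA4 ID is epha4a, and which EFNB2 ID is efnb2a, is therefore not known here, and both IDs are reported. Levels are in CPM (counts scaled to the size of the library, with TMM factors) and are not corrected for gene length. They are compared between libraries and not between genes. Differences were tested over 18075 genes by edgeR (quasi-likelihood F-test), and log2 fold changes are ca_fgfr1 minus control with their standard error (SE).

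Libraries held 13173019 to 20541155 counts. The Fgf response list, a check of the labels, had a summed level of 312 to 542 CPM in controls and 967 to 1797 CPM in ca_fgfr1. The feedback inhibitor spry2 passed an edgeR adjusted p of 0.05 (log2 fold change 1.77 ± 0.25 SE, adjusted p = 0.0408), the 1 gene of the list to do so, against 5 with DESeq2. No gene of the list passed with library totals only (smallest edgeR adjusted p 0.1025), with a replicate block (0.162) or in 7 of 8 fits without 1 library (0.065 to 0.21). Neural markers were present in every library, and some varied more than others. The range was 821 to 1231 CPM for sox3, but 139 to 796 CPM for ELAVL3 and 57.8 to 217 CPM for neurod4. Markers of epidermis (6899 to 23880 CPM summed over 6 genes), otic vesicle and neural crest were present too. Control replicate 1 stood apart, with a mean correlation of 0.893 with the other controls, against at least 0.926 for any other library within its group. It had the fewest counts (13173019) and the fewest genes with a count (21708, against 22784 to 23702 in the other libraries). Its TMM factor was the lowest, at 0.811 against 0.940 to 1.145. Epidermal markers were also highest in control replicate 1. Controls 3 and 4 differed in other tissues. Muscle markers (4 genes) summed to 144.4 CPM in control replicate 4, against at most 4.639 CPM in any other library. Blood markers (4 genes) were highest in control replicate 3 (259.9 CPM), followed by ca_fgfr1 replicate 3 (155.5 CPM). The part of these tissues, or of depth, in the levels of the members was not tested.

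No Eph receptor or ephrin was called changed. Over all genes, 3 met the criteria of the study (edgeR adjusted p of at most 0.01, at least a 2-fold difference, and more than 30 normalised counts throughout 1 group), which is 0.0166%. With DESeq2, the tool of the study, the same criteria gave 45 genes (0.249%), and 0 members. At an edgeR adjusted p of 0.05 there were 9 genes (0.0498%), and again 0 members. DESeq2 gave 82 genes at 0.05 (0.454%), limma-voom 10 (0.0553%) and edgeR without control replicate 1 gave 13 (0.0703%), with 0 members each. The smallest edgeR adjusted p among members was 0.866, shared by several of them. The values below therefore describe differences that did not pass after adjustment for all genes tested. Of the 10 genes of the Fgf response list, 6 did not overlap between groups (all tested genes, 3.34%), with spry1 almost tied at 3.41 CPM. Only 1 of the 10 passed an edgeR adjusted p of 0.05. A member that did not pass is thus not shown to be unchanged.

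At an unadjusted edgeR p under 0.05 there were 6 of 28 members (21.4%), against 5.34% of all tested genes. Lower in ca_fgfr1 were 4 of these, namely ephb4a, EPHB3 ENSDARG00000031548, EFNA1 ENSDARG00000030326 and EFNB3 (all genes, 3.21%). Higher were 2, namely EFNA1 ENSDARG00000018787 and EFNB2 ENSDARG00000074050 (all genes, 2.14%). The number was not stable: it was 8 with DESeq2 (all genes, 6.82%) and 8 without control replicate 1 (all genes, 26.3%), but 2 with a replicate block (all genes, 3.24%), 1 without control replicate 3 (all genes, 3.15%) and 1 without control replicate 4 (all genes, 3.34%).

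Most members had a log2 fold change below 0. This was so for 23 of 28 (82.1%), where all tested genes gave 54.1%. Among the classes the share was 7 of 8 for EphA receptors, 7 of 7 for EphB receptors, 6 of 9 for ephrin-A ligands and 3 of 4 for ephrin-B ligands. The median log2 fold change was -0.19, -0.50, -0.21 and -0.31 in the same order, beside -0.04 over all tested genes. Receptors thus lay below 0 in 14 of 15 cases and ligands in 9 of 13. The receptor count rested on single libraries. It was 9 of 15 (60.0%) without control replicate 4, where all genes gave 58.2%, and 11 of 15 (73.3%) without control replicate 3, where all genes gave 57.6%. Without ca_fgfr1 replicate 2 the receptor count was also 11 of 15 (73.3%), where all genes gave 59.2%. In the same order of libraries left out, EphA receptors lay below 0 in 4, 5 and 4 of 8 cases. EphB receptors did so in 5, 6 and 7 of 7. No test was made of these class values.

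**Figure D1:**
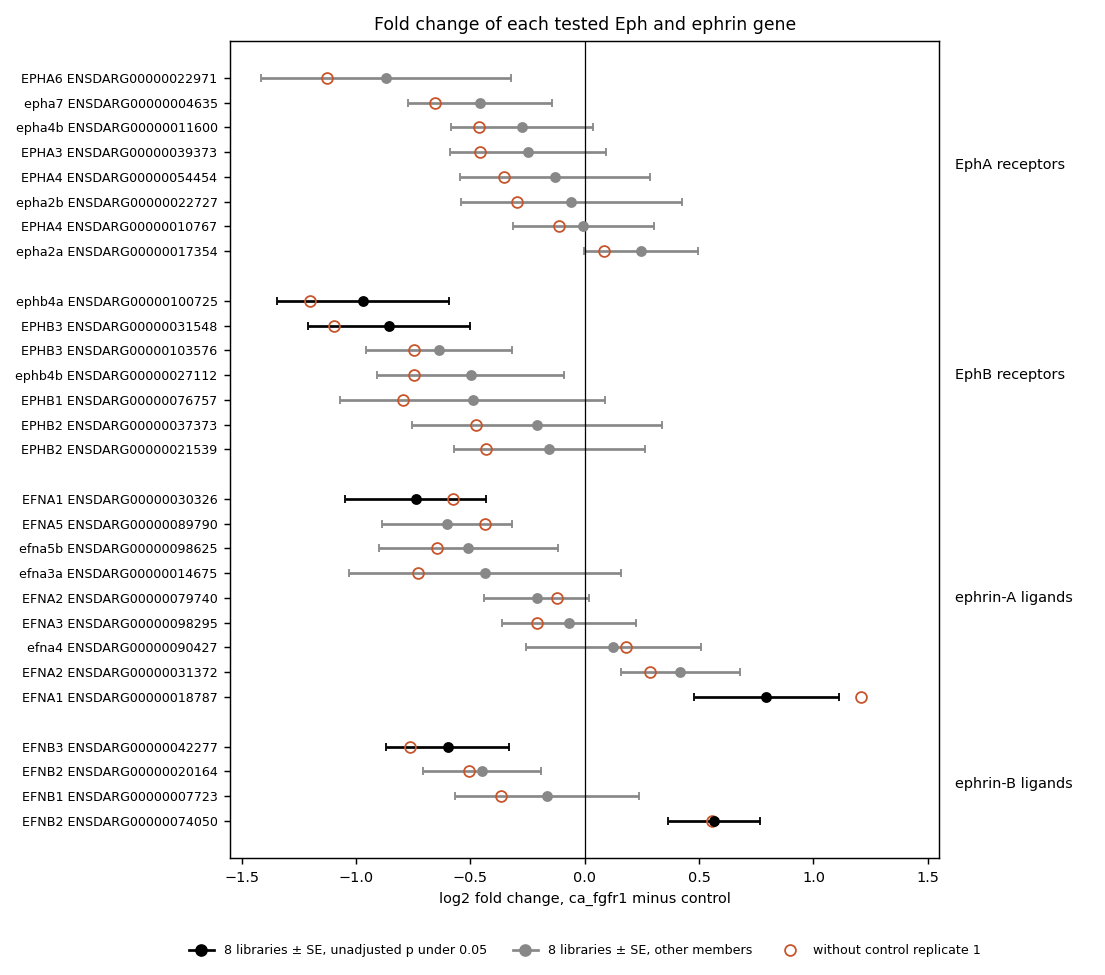
Log2 fold change (ca_fgfr1 minus control, x axis) of the 28 tested members by class, with filled points and SE bars for all 8 libraries and open circles for the fit without control replicate 1. All 7 EphB receptors lie below 0, and EFNA1 ENSDARG00000018787 moves from 0.79 to 1.21 without that library.

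EphB receptors had the lowest class median. ephb4a (ENSDARG00000100725) encodes a receptor for ephrin-B2 that is also known as a marker of veins. It was at 28.7, 51.9, 87.8 and 76.0 CPM in control replicates 1 to 4 and at 46.2, 18.2, 28.1 and 32.3 CPM in ca_fgfr1 replicates 1 to 4. Only control replicate 1 fell within the range of the ca_fgfr1 libraries. Mean levels were 61.1 ± 26.3 and 31.2 ± 11.6 CPM (SD, n = 4 each). On the log2 scale the difference was -0.97 ± 0.38 SE (edgeR adjusted p = 0.866), and -1.22 to -0.76 over 16 alternative fits. Without control replicate 1 it was -1.20 ± 0.30 (edgeR adjusted p = 0.144), and the groups no longer overlapped. With that control left out, 21.5% of all genes did not overlap, and 5 members. In the same fit 26.3% of all genes had an unadjusted edgeR p under 0.05. EPHB3 ENSDARG00000031548 and EFNB3 shared the adjusted p of 0.144, so the lower value is not particular to ephb4a. Without control replicate 2, 3 or 4 instead, every member had an edgeR adjusted p of 0.967 or more.

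In a bulk hindbrain, fewer cells of a type and less RNA per cell cannot be told apart. Since ephb4a is a vein marker, besides being known from hindbrain segmentation, the vascular list is set beside it. Its 6 genes summed to 55.0, 86.3, 124 and 162 CPM in the controls and to 68.8, 75.3, 69.9 and 90.6 CPM in ca_fgfr1. All 6 had a log2 fold change below 0, with a median of -0.50, and 0 passed an edgeR adjusted p of 0.05. Their part in the ephb4a values was not tested.

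EPHB3 ENSDARG00000031548 encodes a receptor that binds ephrin-B ligands. It was at 27.4, 62.4, 75.5 and 73.3 CPM in the controls and at 42.8, 22.2, 42.2 and 24.7 CPM in ca_fgfr1. As for ephb4a, controls 2 to 4 lay above every ca_fgfr1 library and control replicate 1 lay among them. The log2 fold change was -0.86 ± 0.35 SE (edgeR adjusted p = 0.866), and -1.09 ± 0.26 without control replicate 1 (edgeR adjusted p = 0.144). Over the 16 alternative fits it ran from -1.095 to -0.73. The other EPHB3 ID, ENSDARG00000103576, was at 5.32 to 9.52 CPM in controls and 3.72 to 6.34 CPM in ca_fgfr1 (log2 fold change -0.64 ± 0.32, edgeR adjusted p = 0.866).

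The remaining EphB receptors differed less. ephb4b (ENSDARG00000027112), the paralogue of ephb4a, was at 19.8 to 63.1 CPM in controls and 15.1 to 49.1 CPM in ca_fgfr1, with a log2 fold change of -0.50 ± 0.41 SE. EPHB1 and both EPHB2 IDs were at 12.2 CPM or less in every library, with log2 fold changes from -0.49 to -0.15 and edgeR adjusted p from 0.923 to 0.974. For ephb6 (ENSDARG00000057729), control replicate 1 had 0 counts, which allows a level of up to 0.281 CPM by counting error alone. Its other libraries were at 0.0477 to 0.308 CPM, so no difference was detectable at this depth.

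**Figure D2:**
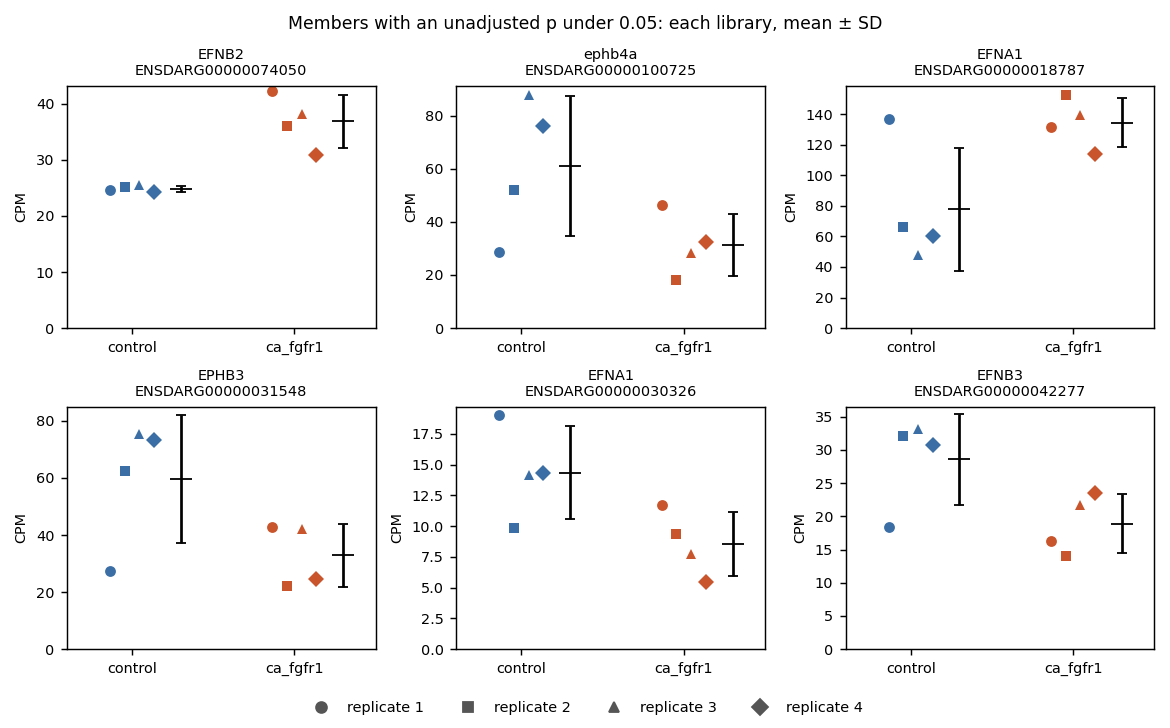
CPM (y axis, from 0) in each control and ca_fgfr1 library for the 6 members with an unadjusted edgeR p under 0.05, with symbols for replicates and bars for the mean ± SD. Only for EFNB2 ENSDARG00000074050 do the groups not overlap, with controls at 24.4 to 25.5 and ca_fgfr1 at 30.9 to 42.3 CPM.

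EphA receptors held no member with an unadjusted p under 0.05. EPHA4 ENSDARG00000054454 was at 49.6, 92.6, 128 and 140 CPM in the controls and at 147, 38.8, 78.6 and 110 CPM in ca_fgfr1. Its highest and its lowest value were both in ca_fgfr1, and the log2 fold change was -0.13 ± 0.41 SE (edgeR adjusted p = 0.975). EPHA4 ENSDARG00000010767 was at 19.9, 22.7, 29.3 and 32.7 CPM and at 41.3, 17.8, 25.9 and 19.1 CPM. Its means of 26.1 and 26.0 CPM were nearly equal (log2 fold change -0.01 ± 0.31, edgeR adjusted p = 0.998). The third gene of this name, epha4b (ENSDARG00000011600), was at 36.5 to 81.9 CPM in controls and 37.0 to 71.9 CPM in ca_fgfr1. Whichever ID is epha4a, the receptor of r3 and r5, its groups overlapped in these libraries. EGR2 ENSDARG00000042826 encodes a zinc finger factor of the same segments that is known to activate EphA4, and was at 24.7 to 56.2 CPM in controls and 25.5 to 51.8 CPM in ca_fgfr1 (log2 fold change -0.02 ± 0.32). For egr2a it was -0.35 ± 0.45. Of 9 tested segment identity genes, these included, 7 lay below 0 (median -0.32), and 0 passed an edgeR adjusted p of 0.05. HOXD3 had an unadjusted edgeR p under 0.05 (all tested genes, 5.34%). HOXB2 was lower in ca_fgfr1 and did not overlap between groups (all tested genes, 3.34%). This was nearly a tie, with the lowest control at 42.5 and the highest ca_fgfr1 library at 42.0 CPM. With upper-quartile factors, library totals only or no filter, 0 of these segment genes were without overlap (all genes, 2.93 to 3.4%).

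epha7 (ENSDARG00000004635) encodes a receptor for ephrin-A ligands. It was at 64.6, 94.5, 151 and 155 CPM in the controls and at 114, 58.6, 89.4 and 77.0 CPM in ca_fgfr1. Controls 3 and 4 were above all other libraries, and control replicate 1 was again low. The log2 fold change was -0.46 ± 0.32 SE (edgeR adjusted p = 0.870), and -0.65 ± 0.25 without control replicate 1 (edgeR adjusted p = 0.157). Over the 16 alternative fits it ran from -0.65 to -0.30. epha2a (ENSDARG00000017354), a receptor best known from mammalian epithelia, had a log2 fold change above 0, the only such receptor, at 25.6 to 50.7 CPM in controls and 43.1 to 52.7 CPM in ca_fgfr1 (0.25 ± 0.25, edgeR adjusted p = 0.906). epha2b (ENSDARG00000022727) ranged from 8.97 to 34.2 CPM, both in ca_fgfr1. EPHA3 was at 3.84 to 9.85 CPM and EPHA6 at 0.359 to 1.81 CPM over the 8 libraries, with groups that overlapped.

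Ephrin-A ligands moved in both directions. EFNA1 ENSDARG00000018787 had the largest log2 fold change above 0 of all members. Ephrin-A1 was first described in mammals as a gene induced by a cytokine in endothelial cells. Its transcript was at 137, 65.9, 47.9 and 60.0 CPM in the controls and at 132, 153, 139 and 114 CPM in ca_fgfr1. Controls 2 to 4 lay well below every ca_fgfr1 library, and control replicate 1 lay within their range. Mean levels were 77.6 ± 40.1 and 134 ± 16.1 CPM (SD, n = 4 each). On the log2 scale the difference was 0.79 ± 0.32 SE (edgeR adjusted p = 0.866), and 0.62 to 1.21 over 16 alternative fits. Without control replicate 1 the control mean was 57.9 ± 9.20 CPM (n = 3), and the log2 fold change was 1.21 ± 0.19 with an edgeR adjusted p of 0.0887. This was the smallest adjusted p of any member in any setting, and it did not pass 0.05. Epidermal markers were highest in the same control (23880 CPM, against 8596 to 14360 CPM in the other controls). In ca_fgfr1 replicates 1 to 4, where EFNA1 was high throughout, they were at 6899, 11740, 12500 and 13280 CPM. The part of epidermal tissue in the EFNA1 level of control replicate 1 was not tested.

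The other EFNA1 ID, ENSDARG00000030326, pointed the opposite way. It was at 19.0, 9.82, 14.2 and 14.3 CPM in the controls and at 11.7, 9.33, 7.76 and 5.49 CPM in ca_fgfr1. Control replicate 2 and ca_fgfr1 replicate 1 overlapped, and the log2 fold change was -0.74 ± 0.31 SE (edgeR adjusted p = 0.866). Control replicate 1 was the highest library, and without it the log2 fold change was -0.58 ± 0.29 and the unadjusted edgeR p was 0.0745, no longer under 0.05.

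The EFNA2 IDs also lay on either side of 0. EFNA2 ENSDARG00000031372 was at 29.3, 47.9, 42.9 and 42.2 CPM in the controls and at 44.7, 41.4, 75.0 and 55.9 CPM in ca_fgfr1, so that the groups overlapped (log2 fold change 0.42 ± 0.26 SE, edgeR adjusted p = 0.866). Ephrin-A2 and ephrin-A5 are best known for their graded expression in the midbrain tectum, where they guide retinal axons. EFNA2 ENSDARG00000079740 was at 19.0 to 29.7 CPM in controls and 17.3 to 25.0 CPM in ca_fgfr1 (-0.21 ± 0.23).

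EFNA5 ENSDARG00000089790 was at 48.9, 29.2, 36.6 and 31.2 CPM in the controls and at 15.8, 30.7, 19.8 and 29.7 CPM in ca_fgfr1 (log2 fold change -0.60 ± 0.28 SE, edgeR adjusted p = 0.866), or -0.43 ± 0.25 without control replicate 1. ca_fgfr1 replicates 1 and 3 were below all controls, and replicates 2 and 4 were within their range. EFNA3 ENSDARG00000098295 was at 17.0 to 29.9 CPM in controls and 12.7 to 27.0 CPM in ca_fgfr1. The remaining ephrin-A ligands (efna3a, efna4 and efna5b) were low, at 0.179 to 4.41 CPM. The midbrain marker OTX2 (ENSDARG00000011235) was at 0.849 to 5.82 CPM in all libraries.

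Ephrin-B ligands included the 1 member whose groups did not overlap, EFNB2 ENSDARG00000074050. Ephrin-B2 is the partner of EphB4, marks arteries and, in the zebrafish hindbrain, lies in segments that adjoin those with epha4a. This ID was at 24.5, 25.1, 25.5 and 24.4 CPM in the controls and at 42.3, 36.1, 38.1 and 30.9 CPM in ca_fgfr1. The controls were nearly level, and all 4 ca_fgfr1 libraries were above them. The log2 fold change was 0.57 ± 0.20 SE, or 1.48-fold (edgeR adjusted p = 0.866, DESeq2 adjusted p = 0.305). Across all tested genes, 3.34% showed no overlap in either direction, so 1 of 28 members is near the background. With library totals in place of TMM scaling there were 3 members, against 3.4% of all genes.

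The other ephrin-B ligands had log2 fold changes below 0. EFNB2 ENSDARG00000020164 was at 50.4, 40.1, 71.4 and 68.8 CPM in the controls and at 41.8, 31.2, 46.9 and 49.2 CPM in ca_fgfr1 (-0.45 ± 0.26 SE, edgeR adjusted p = 0.866). Control replicate 2 was within the range of ca_fgfr1, and control replicate 1 just above it. EFNB3 ENSDARG00000042277, a ligand that EphA4 can bind, was at 18.5, 32.1, 33.1 and 30.7 CPM in the controls and at 16.3, 14.1, 21.7 and 23.5 CPM in ca_fgfr1. Only control replicate 1 overlapped with ca_fgfr1, and the log2 fold change was -0.60 ± 0.27 SE (edgeR adjusted p = 0.866), or -0.76 ± 0.22 without that control (edgeR adjusted p = 0.144). Over the 16 alternative fits it ran from -0.76 to -0.50. EFNB1 was at 6.52 to 20.2 CPM over all libraries, with both extremes in ca_fgfr1.

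**Figure D3:**
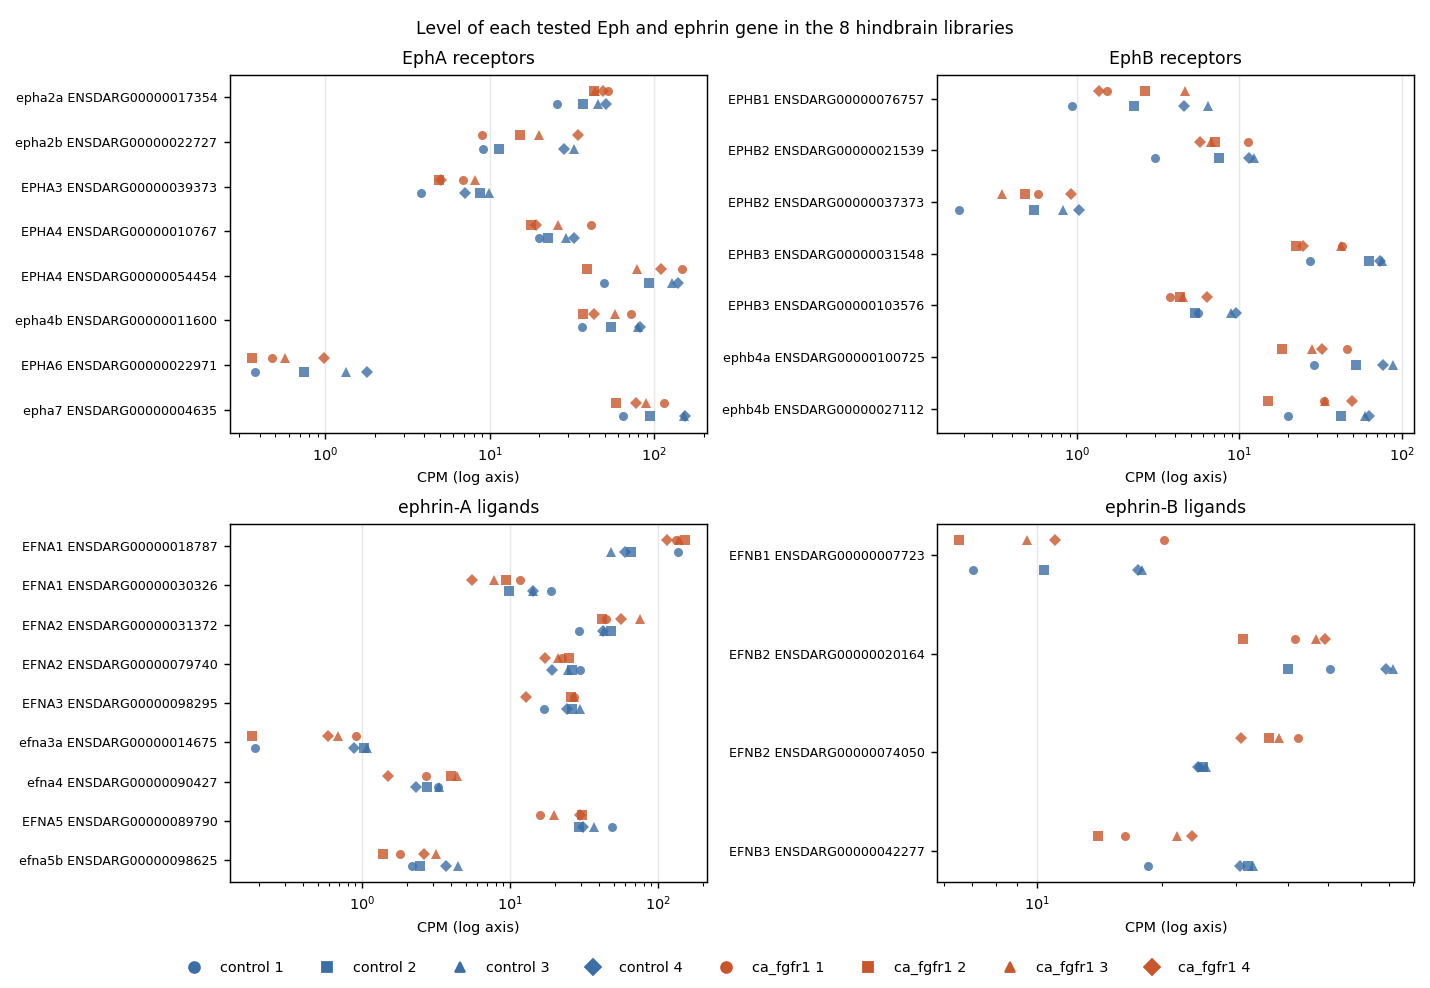
CPM (x axis, log scale) of the 28 tested members in each of the 4 control (blue) and 4 ca_fgfr1 (orange) libraries, by class. Replicates have the same symbol in both groups, and the values run from 0.179 CPM for efna3a to 155 CPM for epha7.

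Paralogues with a shared symbol thus differed in sign for EFNA1, EFNA2 and EFNB2, and the ratio of the 2 IDs within a library removes the effect of scaling. For EFNA1, the level of ENSDARG00000018787 divided by that of ENSDARG00000030326 was 7.19, 6.72, 3.38 and 4.18 in the controls and 11.3, 16.4, 17.95 and 20.8 in ca_fgfr1. The ratio did not overlap between groups, control replicate 1 included, and averaged 5.37 ± 1.87 against 16.6 ± 3.99 (SD, n = 4 each). For EFNB2, ENSDARG00000020164 divided by ENSDARG00000074050 gave 2.05, 1.598, 2.795 and 2.82 in the controls and 0.987, 0.866, 1.23 and 1.592 in ca_fgfr1. Here the lowest control (1.598) and the highest ca_fgfr1 library (1.592) were nearly equal. The ratios of EFNA2, EPHA4, EPHB2 and EPHB3 overlapped. The pairs were singled out after their values were seen, so no test is given. IDs already seen to differ in opposite directions tend to give separated ratios. How often such ratios do not overlap over all genes was not computed. Reads that match both paralogues were divided between them by the counting program.

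**Figure D4:**
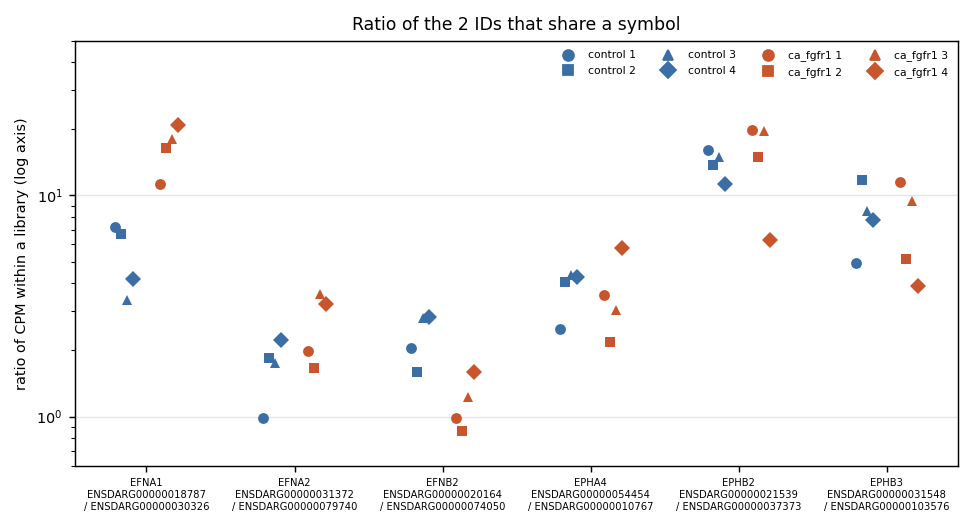
Ratio of the CPM of the 2 IDs with a shared symbol (y axis, log scale) in each control (blue) and ca_fgfr1 (orange) library. The EFNA1 ratio is 3.38 to 7.19 in controls and 11.3 to 20.8 in ca_fgfr1, and the ratios of EFNA2, EPHA4, EPHB2 and EPHB3 overlap between groups.

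The lowest levels of the receptors often fell in the same libraries. Control replicate 1 and ca_fgfr1 replicate 2 were singled out after the member values were seen. An excess of receptors over all tested genes below follows in part from that choice. For 13 of 15 tested receptors (86.7%), the lowest of the 8 libraries was control replicate 1 or ca_fgfr1 replicate 2, where all tested genes gave 38.2%. It was so for 3 of 4 ephrin-B ligands (75.0%) and 3 of 9 ephrin-A ligands (33.3%). Control replicate 1 was below the other 3 controls for 14 of 15 receptors (all tested genes, 41.5%), and ca_fgfr1 replicate 2 was below the other ca_fgfr1 libraries for 10 of 15 (29.1%). The receptor classes differed in the latter, with 7 of 8 EphA but 3 of 7 EphB receptors. These were the 2 lowest libraries for 5 of 8 EphA but 1 of 7 EphB receptors (all tested genes, 17.3%). EphA receptors summed to 210 CPM in control replicate 1 and 216 CPM in ca_fgfr1 replicate 2, against 322 to 497 CPM in the other 6 libraries. EphB receptors summed to 85.4 and 70.0 CPM, against 120.0 CPM or more in the others. Ephrin-B ligands were also lowest there, at 100.4 and 87.8 CPM against 108 to 148 CPM. Ephrin-A ligands did not share this, at 286 and 291 CPM against 198 to 298 CPM.

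The same 2 libraries were lowest in ELAVL3 (ENSDARG00000014420), an RNA-binding protein of newly formed neurons, named here after its values were seen. It was at 183 CPM in control replicate 1 and 139 CPM in ca_fgfr1 replicate 2, against 486 to 796 CPM in the other libraries. This is not particular to ELAVL3, since 17.3% of all tested genes had these 2 libraries lowest. Taken singly, the other neural markers did not share this order. neurog1, a proneural factor, was at 54.0 CPM in control replicate 1 but at 111 CPM in ca_fgfr1 replicate 2, which was the second highest of the ca_fgfr1 libraries. neurod4 was at 57.8 and 105 CPM, the latter above ca_fgfr1 replicate 4 (87.6 CPM). Of the progenitor factors, sox3 was at 1231 and 1214 CPM, within the upper part of its range, sox2 was lowest in ca_fgfr1 replicate 2 (78.0 CPM) and sox19a was lowest in ca_fgfr1 replicate 4 (277 CPM), with 324 and 373 CPM in these 2 libraries. Blood markers (4 genes) were also lowest in these libraries, at 3.93 and 3.35 CPM summed against 17.45 to 260 CPM. The part of cell content in the receptor levels was not tested.

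**Figure D5:**
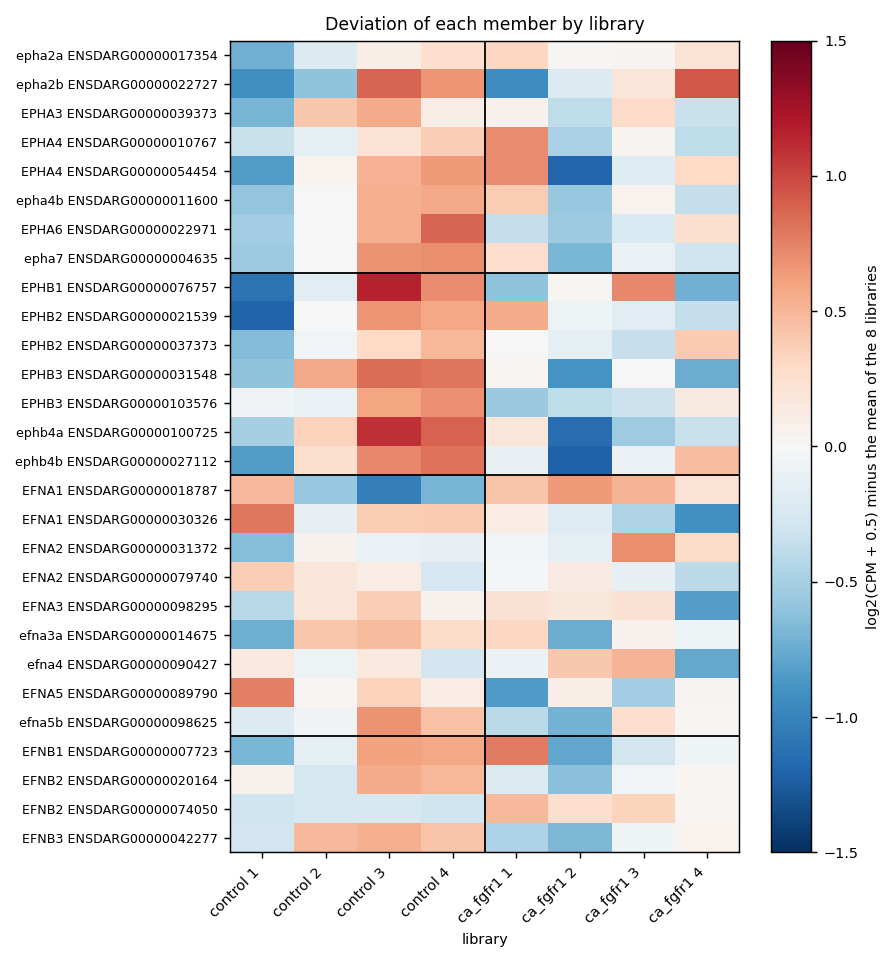
Log2(CPM + 0.5) of each tested member minus its mean over the 8 libraries (colour scale, below the mean to above it), with libraries as columns and members as rows. Receptors (upper 15 rows) are mostly below their mean in control replicate 1 and ca_fgfr1 replicate 2, and above it in control replicates 3 and 4.

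Genes that act with Eph receptors and ephrins were examined as a list of 50, of which 36 matched 1 ID and all 36 were tested. By edgeR, 0 passed an adjusted p of 0.05 in either direction, 2 had an unadjusted p under 0.05 (5.56%, against 5.34% of all genes), and the median log2 fold change was -0.06. The smallest p was that of rgs3a (ENSDARG00000099746), whose mammalian counterpart binds the tail of ephrin-B ligands and carries their reverse signal to G proteins. It was at 10.02, 14.7, 12.5 and 13.03 CPM in the controls and at 20.6, 28.8, 31.4 and 42.4 CPM in ca_fgfr1. All ca_fgfr1 libraries were above all controls, and the log2 fold change was 1.29 ± 0.27 SE (edgeR adjusted p = 0.327). It was the 1 gene of the 36 without overlap (2.78%), which is near the background (all tested genes, 3.34%). DESeq2 gave rgs3a an adjusted p of 0.00412, the 1 gene of the 36 to pass 0.05 with that tool (all tested genes, 0.454%). With DESeq2, rgs3a also met the full criteria of the study (all tested genes, 0.249%).

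The next partner was GRIP1 (ENSDARG00000015053), a PDZ protein that binds the tail of ephrin-B ligands. It was at 11.1, 16.2, 25.3 and 16.0 CPM in the controls and at 12.1, 7.59, 11.9 and 10.1 CPM in ca_fgfr1 (log2 fold change -0.72 ± 0.30 SE, edgeR adjusted p = 0.866). The third was kalrnb (ENSDARG00000063538). Its controls lay at 10.7 to 16.4 CPM, and the ca_fgfr1 libraries at 15.3, 15.9, 29.0 and 29.2 CPM (0.64 ± 0.29, edgeR adjusted p = 0.866).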

How the data were processed

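RNA from 8 single hindbrains (4 control, 4 ca_fgfr1) was amplified with the SMARTer kit and sequenced. The authors aligned single-end reads to GRCz10 with STAR 2.5.1b and estimated gene counts with RSEM 1.2.31. The deposited values are expected counts rounded to whole numbers, with no scaling. Columns were matched to samples by reading C as control and F as ca_fgfr1. Whether counting used strand is not given in the sources used here. The embryos shared a heat-shocked clutch, so p-values measure the spread between hindbrains of that clutch.

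The main fit used edgeR 4.0.16 under R 4.3.3 (filterByExpr, TMM scaling, quasi-likelihood F-test, Benjamini-Hochberg adjustment over 18075 genes), the common biological coefficient of variation being 0.398. SE was taken as |log2 fold change| over the root of F. DESeq2 1.42.0, limma-voom (limma 3.58.1), other scalings and filters, a replicate block and leaving out each library were alternatives. Steps were tested on simulated data. Replicates of a group differed by more than sampling noise (chi-square per degree of freedom of at least 23.8). A table of symbols named 26350 IDs. List genes that matched several IDs were dropped. No gene lengths, coordinates or sequences were used.

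Values per library are given for members with an unadjusted p under 0.05 or without overlap, those known from hindbrain segmentation (epha4a, ephb4a, efnb2a, efnb3b, as far as symbols allow), the 2 of each class with the highest mean CPM, and the 3 partners with the smallest p. EFNA5, ELAVL3, egr2a, egr2b and the summary of segment identity genes were added after values were seen. The counts for control replicate 1 and ca_fgfr1 replicate 2 as the lowest libraries were also chosen then. Members and lists were chosen with earlier results of these data known.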

Additional observations from a re-analysis of the deposited data

Results flagged for a closer look

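Among 56 groups of 4 libraries (28 members in each of the 2 groups), 2 had 1 library far from the other 3, by Dixon's ratio of gap to range at the 95% level. Chance gives about 1 in 20 groups, here 2.8.

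EFNA3 ENSDARG00000098295 was at 12.7 CPM in ca_fgfr1 replicate 4, against 25.9 to 27.0 CPM in the other ca_fgfr1 libraries (ratio 0.926). EFNB3 ENSDARG00000042277 was at 18.5 CPM in control replicate 1, against 30.7 to 33.1 CPM in the other controls (ratio 0.84).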

How the results depend on the processing

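Under 16 alternatives, 0 members were called and 0 passed an adjusted p of 0.05 in any setting, the lowest adjusted p being 0.0887. Direction was the same throughout for 20 of 28 members.

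Members at an unadjusted p under 0.05 numbered 6 (all genes, 5.34%), and 2 with the replicate block (3.24%), 1 to 8 without 1 library (3.15 to 26.3%). Members without overlap numbered 1 (all genes, 3.34%), and 3 with library totals only (3.4%). Without control replicate 1 they numbered 5 (all genes, 21.5%). Without any other single library they numbered 1 to 4 (all genes, 4.23 to 6.44%). Same-numbered libraries deviated together at correlations of -0.293, -0.0132, 0.22 and 0.194. Values for differently numbered libraries are not given beside these, so whether numbers pair the libraries cannot be told from them. The block left the members called at 0, as in the main fit. It took the genes at an adjusted p of 0.05 from 9 to 2 and those meeting the criteria of the study from 3 to 0, with spry2 among the 9 but not the 2. Among the 36 Eph partners, DESeq2 gave 1 gene at an adjusted p of 0.05 (rgs3a, all genes 0.454%), against 0 with edgeR (all genes, 0.0498%).

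Without 1 library, class medians ranged from -0.41 to -0.05 (EphA receptors), -0.78 to -0.37 (EphB receptors), -0.33 to -0.15 (ephrin-A ligands) and -0.49 to -0.17 (ephrin-B ligands). Changes of sign occurred without 1 library for epha2b (-0.51 to 0.25), EPHA4 ENSDARG00000010767 (-0.32 to 0.12), EPHA4 ENSDARG00000054454 (-0.43 to 0.10), EPHB2 ENSDARG00000021539 (-0.43 to 0.047), EPHB2 ENSDARG00000037373 (-0.54 to 0.085), EFNA3 (-0.21 to 0.10), efna4 (-0.10 to 0.32) and EFNB1 (-0.55 to 0.012). With no filter, EPHA4 ENSDARG00000010767 was at 0.024. The cause was not tested. Depth limits EPHA6, efna3a, one EPHB2 ID and ephb6, which were near 1 CPM or below.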
